A study of Arabidopsis thaliana with 24 samples.

Results

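The response of the triple mutant iaa5-1 iaa6-1 iaa19-1, called iaa5 iaa6 iaa19 here, to the auxin indole-3-acetic acid (IAA) was measured on 6 of the 24 arrays of the study, 3 after IAA and 3 ethanol controls. Its members are those 6 arrays, taken by the line and treatment in their labels, and the response of a probe set is the mean log2 value of the IAA arrays minus that of the control arrays. Seedlings were 7 days old, light-grown in liquid medium with sucrose, and were given 5 µM IAA, or ethanol, for 2 h at 24 °C. The other groups are IAA and control arrays of iaa17-6, of axr3-1 and of the Columbia wild type (Col), 3 arrays each, and the mutants carry alleles at Aux/IAA loci, iaa17-6 and axr3-1 both at IAA17. Whole seedlings were measured, so more cells of a type and more RNA per cell cannot be told apart.

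Aux/IAA proteins are short-lived repressors that bind the ARF transcription factors and keep auxin-responsive genes low. Auxin joins an Aux/IAA protein to an F-box receptor of the TIR1 family, the repressor is degraded, and the ARF targets are transcribed. Among the targets are Aux/IAA genes themselves and GH3 genes, whose enzymes attach amino acids to auxin, so that the response includes its own brakes. Members of the family overlap in function, and IAA19 is best known from growth curvature of the hypocotyl. In axr3-1 the IAA17 protein is stabilised, whereas iaa17-6 is a loss-of-function allele.

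The arrays are Affymetrix ATH1, and the deposited values are on a log2 scale with a floor at 5.64, the log2 of 50. A value at the floor is only an upper limit, so a change against a group at the floor on all 3 arrays is written as at least N-fold. Such a group also shows no spread, so the SE and adjusted p of its probe sets can be too small. The floor held 44.5% to 46% of the values of the 6 arrays, and array medians lay between 5.941 and 6.046. No probe set is named for IAA5, IAA6 or IAA19 in the annotation at hand, so which probe sets measure their transcripts was not settled here, and the labels were not checked by them. Both arrays numbered 1 of iaa5 iaa6 iaa19, IAA and control, stood apart from the others of their group: 220 of the 14192 tested probe sets were lower by at least 1 log2 unit on both, and 6 were higher. Of those, 1 was called higher after IAA and 0 were called lower. Markers of photosynthetic tissue were level between the groups, with 0 of 5 tested members called, a median log2 difference of -0.14 and a summed signal of 17500 after IAA and 18600 in controls, and so was the root beta-glucosidase gene PYK10 (log2 -0.02, SE 0.11).

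IAA changed 1032 of 14192 tested probe sets in iaa5 iaa6 iaa19 (7.27%, limma, Benjamini-Hochberg adjusted p below 0.05). Higher after IAA were 522 (3.68%) and lower 510 (3.59%). The counts in both directions were near each other, but the sizes were not: 228 rises and 122 falls were at least 2-fold, 63 rises and 9 falls at least 4-fold, 16 rises and 1 fall at least 8-fold, and 3 rises and 0 falls at least 16-fold. The median rise was 1.89-fold and the median fall 1.66-fold, against a median log2 difference of -0.01 over all tested probe sets. Risers started low, with a median control level of 6.21, and ended at a median of 7.64 after IAA, and 116 of them had all 3 control arrays at the floor. Fallers lay at a median of 6.57 after IAA and 7.45 in controls, and 64 of them were at the floor on all 3 IAA arrays, where the size of a fall is cut short.

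The call is near to a separation of the arrays. All 3 IAA arrays lay above all 3 control arrays in 513 of the 522 rises, and below them in 505 of the 510 falls, where 8.58% and 11.3% of all tested probe sets were separated in these ways. The difference had the same sign in all 3 same-numbered pairs of arrays in 516 rises and 506 falls. Over all 14192 tested probe sets, all 3 pairs were higher after IAA in 2641 and lower in 3631. Since the calls were made on these same arrays, this count is not a separate check of them. With the array number as a block the counts were 623 higher (4.39%) and 682 lower (4.81%), and 506 of the 522 and 482 of the 510 were called there too. Without both arrays numbered 1 the count was 753, 408 higher and 345 lower, of which 708 were among the 1032.

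**Figure D1:**
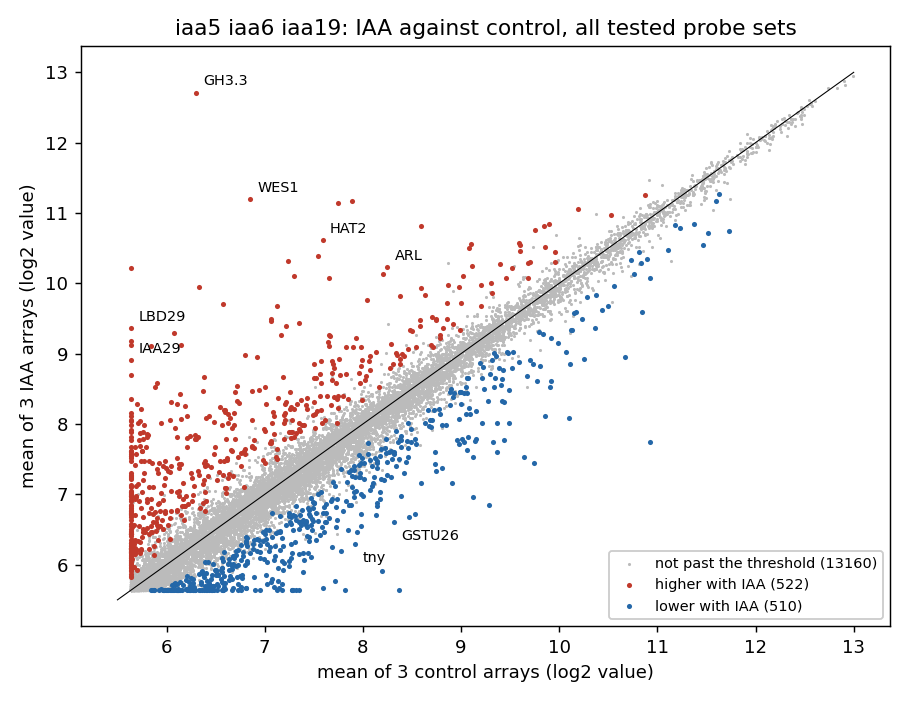
Mean log2 value of the 3 IAA arrays (vertical) against the mean of the 3 control arrays (horizontal) of iaa5 iaa6 iaa19 for 14192 tested probe sets, with the line of equal values. Red points are the 522 called higher and blue points the 510 called lower; many red points stand on the left edge, at the control floor of 5.64, and GH3.3 lies farthest from the line.

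Among annotated genes, the 2 largest rises were those of GH3.3 and WES1, which inactivate auxin. Of 6 tested members of the 16 genes listed for GH3 and other auxin-inactivating enzymes, 4 rose and 0 fell, with a median log2 difference of 2.03. GH3.3, an enzyme that joins auxin to amino acids, read 12.31, 12.92 and 12.89 on the IAA arrays, against 6.17, 6.39 and 6.34 on the control arrays. No IAA array came within 5 log2 units of a control array, and the rise of 6.41 (SE 0.25, 84.8-fold, limma adjusted p = 2.17e-12) was the largest among the 14192 probe sets. The IAA values lie near the highest value of the table, 13.16, where differences may be compressed.

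WES1, also known as GH3.5, a related enzyme, read 10.32, 11.58 and 11.71 on the IAA arrays and 5.94, 7.49 and 7.12 on the control arrays. Array 1 was the lowest of both groups, and the 3 same-numbered differences, 4.38, 4.09 and 4.59, were more alike than the levels (20.5-fold, log2 4.35, SE 0.50, limma adjusted p = 4.93e-06). IAGLU, annotated as an indole-3-acetate glucosyltransferase, read 8.33, 9.18 and 9.34 on IAA arrays and 6.25, 7.15 and 7.38 on control arrays. It shows the same low array 1 in both groups, with paired differences of 2.09, 2.03 and 1.96 (4.07-fold, limma adjusted p = 3.38e-04). GH3.1 read 6.58, 8.24 and 8.21 on the IAA arrays, with all 3 control arrays at the floor, so it rose at least 4.09-fold (limma adjusted p = 0.00178). With only the iaa5 iaa6 iaa19 arrays fitted, the adjusted p was 0.0713 for IAGLU and 0.11 for GH3.1 in limma. GH3.17 (log2 0.32, SE 0.21) and the auxin glucosyltransferase gene UGT74D1 (log2 -0.52, SE 0.26) did not pass the test.

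All 3 tested Aux/IAA genes, of 31 in the list, rose, with a median log2 difference of 1.34. IAA29 read 8.99, 8.84 and 8.90 on the IAA arrays, with the 3 control arrays at the floor. Its IAA arrays differed by little (SD 0.08), and the rise of at least 9.64-fold had the smallest adjusted p among the named genes (log2 3.27, SE 0.09, limma adjusted p = 4.62e-15). For IAA29 the control arrays of every genotype were at the floor and show no spread, so the SE shared by all groups can be too small. IAA30, which lacks the part of the protein that the receptor binds, read 7.04, 6.89 and 7.01 on the IAA arrays against the floor on all control arrays, at least 2.53-fold higher (limma adjusted p = 1.35e-05). IAA18 rose less, with 7.92, 7.96 and 7.68 on IAA arrays and 7.17, 7.26 and 6.85 on control arrays (1.7-fold, log2 0.76, SE 0.19, limma adjusted p = 0.0121). The IAA18 groups do not overlap, but its call was lost without IAA array 2 (adjusted p = 0.0633), without control array 3 (adjusted p = 0.0775), without both arrays numbered 1 (adjusted p = 0.0777) and with only the iaa5 iaa6 iaa19 arrays fitted (adjusted p = 0.0609), all in limma.

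Of 7 tested transcription factor and related genes linked to auxin, of 48 listed, 5 rose and 0 fell, with a median log2 difference of 1.98. LBD29 and LBD16 encode LOB-domain factors that act in lateral root initiation. LBD29 read 9.53, 9.23 and 9.33 on the IAA arrays and LBD16 read 7.83, 7.70 and 7.78, with every control array of both genes at the floor. LBD29 was at least 13.2-fold higher (limma adjusted p = 3.3e-12) and LBD16 at least 4.37-fold higher (limma adjusted p = 7.94e-14). PUCHI, an AP2-type factor of the lateral root primordium, was also at the floor on all control arrays and read 6.43, 6.79 and 6.94 after IAA, at least 2.11-fold higher (limma adjusted p = 5.02e-07).

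HAT2 and ARL were already expressed without auxin, so their folds are measured on both sides. HAT2, a class II homeodomain-leucine zipper gene, read 10.52, 10.58 and 10.72 on IAA arrays and 7.46, 7.60 and 7.70 on control arrays, 8.1-fold higher (log2 3.02, SE 0.13, limma adjusted p = 9.16e-12). ARL, a gene that promotes organ growth, read 10.31, 10.18 and 10.20 on IAA arrays and 8.34, 8.34 and 8.08 on control arrays, 3.95-fold higher (log2 1.98, SE 0.22, limma adjusted p = 3.1e-06). BIM1, a partner of brassinosteroid-regulated factors (log2 0.22, SE 0.12), and LHW, a vascular bHLH factor (log2 -0.24, SE 0.18), did not pass the test.

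**Figure D2:**
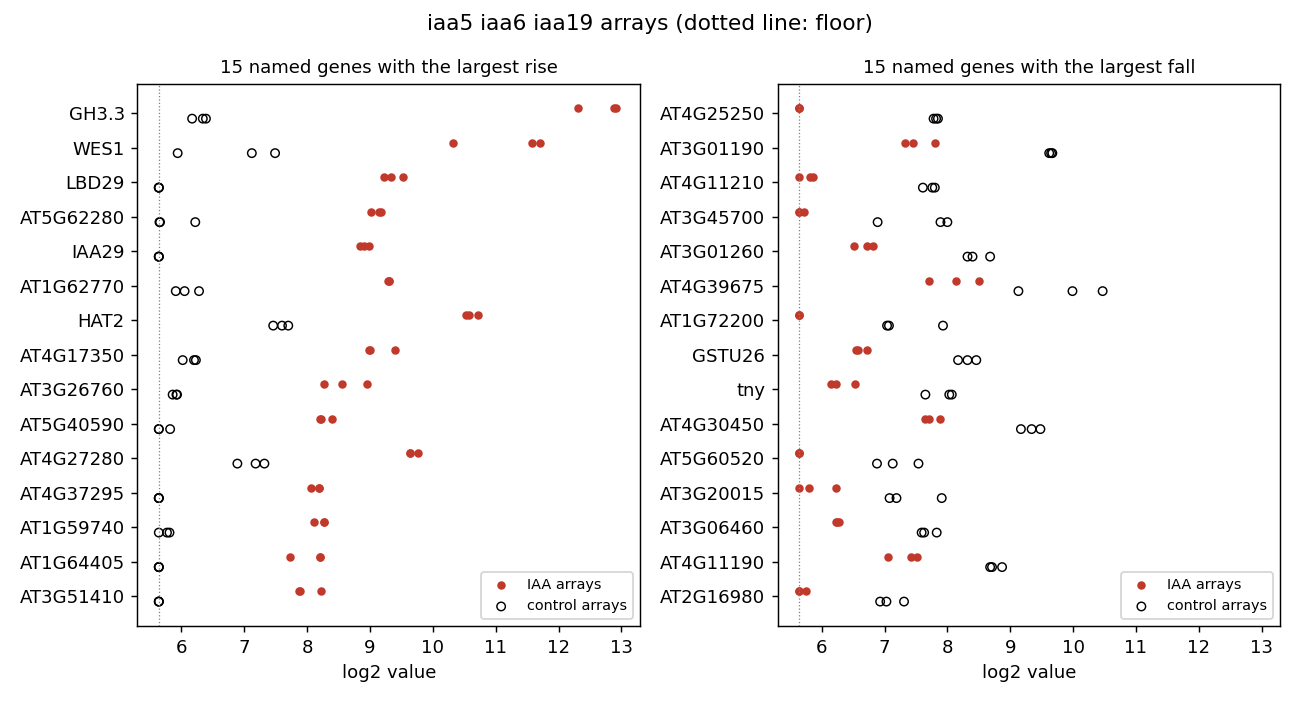
Log2 value on each iaa5 iaa6 iaa19 array for the 15 annotated genes with the largest rise (left) and the 15 with the largest fall (right); filled red points are IAA arrays, open points control arrays and the dotted line is the floor. The groups are apart for each gene because the rule that chose these genes asked for no overlap. Of the rises, 5 start with every control array at the floor, and 3 of the falls end with every IAA array there.

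The other 10 of the 15 annotated genes with the largest rise are known here by locus code. AT5G62280 rose by 3.27 (SE 0.24), with 9.15, 9.02 and 9.17 on IAA arrays and 5.66, 5.65 and 6.22 on control arrays. AT1G62770 was almost the same on every IAA array, at 9.29, 9.31 and 9.30, against 6.28, 5.91 and 6.05 on control arrays (log2 3.22, SE 0.13). AT4G17350 read 9.39, 8.99 and 9.00 on IAA arrays and 6.23, 6.20 and 6.02 on control arrays (log2 2.98, SE 0.13). Rises were 2.69 for AT3G26760, 2.58 for AT5G40590, 2.55 for AT4G27280 and 2.48 for AT1G59740, which the gene table lists as NPF4.3, of a family of nitrate and peptide transporters. AT4G37295, AT1G64405 and AT3G51410 left the floor and were at least 5.67-fold, 5.28-fold and 5.07-fold higher. For these 10 genes the limma adjusted p was between 3.41e-12 and 1.31e-05. The annotation used here names no gene for 275 of the 522 higher probe sets, and the second largest rise, at least 4.57 on the log2 scale, belonged to one of them, 262099_s_at, at 10.22 after IAA with controls at the floor (chosen after its values were seen).

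Among cell wall loosening genes, 23 of 73 listed were tested, 7 rose and 3 fell, and the median log2 difference was 0.15. The members went both ways, and the XTH genes did so within 1 family. The cellulase genes GH9B13 (8.51, 8.31 and 8.57 on IAA arrays, 7.06, 6.74 and 6.81 on control arrays) and GH9C2 (10.32, 10.13 and 10.29 on IAA arrays, 9.15, 8.95 and 9.24 on control arrays) were 3.02-fold and 2.2-fold higher, with limma adjusted p = 6.43e-06 and 2.2e-04. XTH18, a xyloglucan-modifying enzyme gene, read 9.28, 9.02 and 9.00 on IAA arrays and 8.07, 7.64 and 7.78 on control arrays, 2.41-fold higher (limma adjusted p = 4.75e-05). XTH33 rose by at least 0.36 on the log2 scale, with all 3 control arrays at the floor (limma adjusted p = 0.0087), a call lost without both arrays numbered 1 (adjusted p = 0.0653).

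XTH32, of the same enzyme family, fell, with 7.87, 7.60 and 7.54 on IAA arrays and 8.56, 8.38 and 8.23 on control arrays (1.64-fold lower, limma adjusted p = 0.00728; adjusted p = 0.0535 with only the iaa5 iaa6 iaa19 arrays fitted). EXPB1, a beta-expansin gene, was at the floor on all 3 IAA arrays and read 6.66, 6.26 and 6.61 on control arrays, at least 1.82-fold lower (limma adjusted p = 2.09e-07). Chosen after their values were seen, the remaining called members were the alpha-expansin genes EXPA8 (log2 1.43) and EXPA4 (log2 1.42) and XTH19 (log2 1.09), which rose, and XTH16 (log2 -0.76), which fell. The brightest uncalled members were EXGT-A3, the table's name for XTH27 (log2 -0.04, SE 0.12), and EXPA15 (log2 0.37, SE 0.15, limma adjusted p = 0.195, and 0.0459 with the array number as a block, where 8 members rose). The root hair list had 4 tested members of 30, 0 called and a median log2 difference of -0.37. Among its brightest was EXPA18, a root hair expansin gene (log2 -0.47, SE 0.20).

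Among annotated genes, falls were led by those given only as locus codes. Probe sets that the annotation used here does not name fell further. Among them were 253957_at (log2 -2.73), 254606_at (log2 -2.43), 248252_at (log2 -2.3) and 264470_at (log2 -2.3). AT4G25250 was at the floor on all 3 IAA arrays and read 7.82, 7.85 and 7.78 on control arrays, at least 4.5-fold lower (limma adjusted p = 2.33e-08). AT3G01190 read 7.81, 7.33 and 7.46 on IAA arrays and 9.67, 9.62 and 9.65 on control arrays, 4.32-fold lower (log2 -2.11, SE 0.14, limma adjusted p = 3.61e-09). Its control arrays were within 0.05 of each other. AT1G72200 and AT5G60520 were also at the floor on all IAA arrays, at least 3.26-fold and 2.9-fold lower. Log2 differences of the others were -1.95 for AT4G11210, -1.92 for AT3G45700, -1.79 for AT3G01260, -1.58 for AT4G30450, -1.50 for AT3G20015, -1.44 for AT3G06460, -1.42 for AT4G11190 and -1.41 for AT2G16980. For these 12 genes the limma adjusted p was between 3.61e-09 and 7.05e-04.

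AT4G39675 fell by 1.76 on the log2 scale but its arrays were spread, at 8.50, 8.13 and 7.70 after IAA and 9.99, 10.47 and 9.13 in controls (SE 0.44, limma adjusted p = 0.0146). This call was lost without IAA array 3 (adjusted p = 0.0858), without control array 1 (adjusted p = 0.0551), without control array 2 (adjusted p = 0.103) and without both arrays numbered 1 (adjusted p = 0.0619). The gene with a symbol that fell most was GSTU26, a tau class glutathione transferase gene, with 6.54, 6.58 and 6.72 on IAA arrays and 8.32, 8.46 and 8.17 on control arrays (3.26-fold lower, log2 -1.70, SE 0.25, limma adjusted p = 7.87e-05). The AP2-type factor gene tny read 6.53, 6.23 and 6.15 on IAA arrays and 7.65, 8.03 and 8.07 on control arrays, 3.06-fold lower (log2 -1.62, SE 0.17, limma adjusted p = 1.74e-06). Among all probe sets the largest fall was that of 254820_s_at, which matches several genes and is given by its ID. It read 7.92, 7.47 and 7.87 on IAA arrays and 10.89, 10.99 and 10.87 on control arrays, 8.97-fold lower (log2 -3.16, SE 0.18, limma adjusted p = 2.19e-10).

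Tau class glutathione transferases, enzymes of detoxification, also split. Of 9 tested members of 28, 3 fell and 1 rose, with a median log2 difference of -0.19. GSTU28 read 5.74, 5.64 and 5.64 on IAA arrays and 6.80, 6.79 and 6.69 on control arrays, 2.12-fold lower (limma adjusted p = 2.67e-09). GSTU27 fell by 0.82 (limma adjusted p = 0.0134), a call lost without IAA array 2 (adjusted p = 0.0692), IAA array 3 (adjusted p = 0.0843) or control array 1 (adjusted p = 0.0966). GSTU16 rose by 0.71 (limma adjusted p = 0.0319), a call lost without IAA array 1 (adjusted p = 0.167), IAA array 3 (adjusted p = 0.0677), control array 2 (adjusted p = 0.145) or control array 3 (adjusted p = 0.132). GSTU20 (log2 -0.19, SE 0.18) and GSTU25 (log2 0.67, SE 0.23, limma adjusted p = 0.0928) were not called.

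In the sugar and starvation list 12 of 40 members were tested, 1 rose and 3 fell, with a median log2 difference of -0.17. EXO, a gene of cell expansion and carbon status, read 9.14, 9.27 and 9.25 on IAA arrays and 7.96, 7.72 and 8.12 on control arrays, 2.44-fold higher (limma adjusted p = 8.36e-06). The sugar porter genes SFP1 and SFP2 fell: SFP1 read 7.04, 7.01 and 7.06 on IAA arrays and 8.16, 8.19 and 8.16 on control arrays (2.2-fold lower, limma adjusted p = 1.32e-04), and SFP2 was 1.58-fold lower (limma adjusted p = 0.00308). SWEET17, a vacuolar fructose transporter gene, fell by 0.54 (limma adjusted p = 0.00877), a call lost without IAA array 3 (adjusted p = 0.0523) or control array 1 (adjusted p = 0.0587). SWEET11, a sucrose transporter gene (log2 -0.15, SE 0.19), and ICL, isocitrate lyase of the glyoxylate cycle (log2 -0.19, SE 0.62), did not pass the test.

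Single tested members stood for several pathways. WAG2, a kinase that acts on auxin efflux carriers and the 1 tested of 38 transport genes, read 5.87, 6.77 and 6.65 on IAA arrays with the controls at the floor (log2 0.78, SE 0.21, limma adjusted p = 0.0221). Its call was lost without IAA array 2 (adjusted p = 0.154), IAA array 3 (adjusted p = 0.125), control array 1 (adjusted p = 0.0618), control array 2 (adjusted p = 0.0692) or control array 3 (adjusted p = 0.0622). The auxin synthesis gene YUC6 (log2 -0.10, SE 0.04) and EIN3, a transcription factor of ethylene signalling (log2 0.03, SE 0.30), were not called, and the cytokinin response regulator gene RR16 was at the floor on all 6 arrays. EIN3 read 8.58, 9.34 and 9.34 on IAA arrays and 8.48, 9.29 and 9.40 on control arrays, another gene with both arrays numbered 1 low. Of 3 cell cycle genes and of 3 stomatal genes 0 were called, among them the replication factor gene PRL (log2 0.16, SE 0.15), the mitotic kinase gene AUR1 (log2 0.00, SE 0.17), and the stomatal factors FMA (log2 -0.05, SE 0.23) and SPCH (log2 -0.30, SE 0.15). The photosystem gene PSAE-1 (log2 0.00, SE 0.07) and the antenna gene LHCB4.1 (log2 -0.22, SE 0.17) were not called either. For SAUR genes, auxin receptors and ARF factors, and gibberellin and brassinosteroid metabolism, 0 members had a probe set of their own named here.

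**Figure D3:**
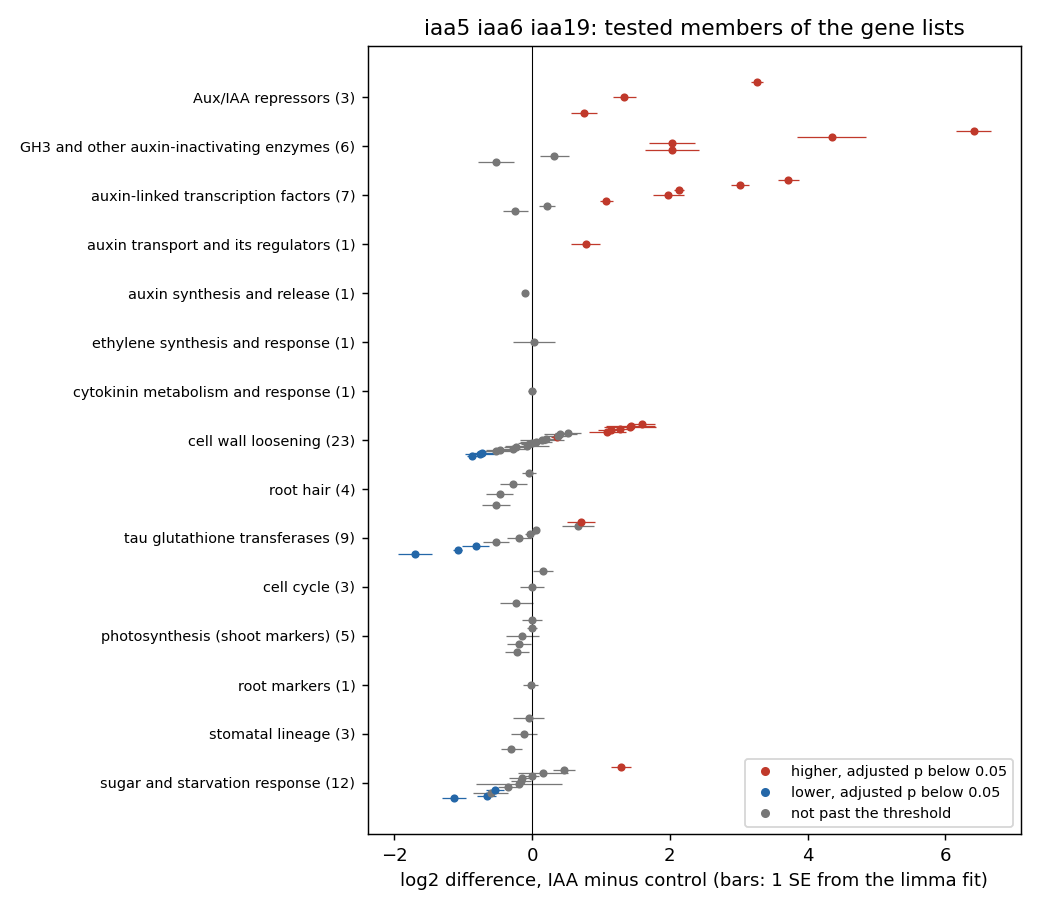
Log2 difference, IAA minus control, of iaa5 iaa6 iaa19 for every tested member of the gene lists, with bars of 1 SE from the limma fit; the number of tested members stands after each list. Red points rose, blue points fell and grey points did not pass the threshold. Called Aux/IAA, auxin-inactivating and transcription factor members all lie to the right, and the uncalled UGT74D1 lies at -0.52. Called cell wall, glutathione transferase and sugar members lie on both sides.

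The response of iaa5 iaa6 iaa19 was next set beside that of the other genotypes, to ask whether this line reacts to auxin differently. The IAA responses were 1032 probe sets in iaa5 iaa6 iaa19 (7.27%), 1096 in iaa17-6 (7.72%), 341 in axr3-1 (2.4%) and 999 in Col (7.04%). Of all tested probe sets, 4.41% rose and 3.31% fell in iaa17-6, 1.79% rose and 0.613% fell in axr3-1, and 3.85% rose and 3.18% fell in Col. Of the 522 rises, 432 were also called in iaa17-6 (82.8% of those of iaa5 iaa6 iaa19 and 69% of those of iaa17-6) and 169 in axr3-1 (32.4% and 66.5%), and 417 in Col (79.9% and 76.2%). Of the 510 falls, 321 were called in iaa17-6 (62.9% and 68.3%) and 31 in axr3-1 (6.08% and 35.6%), and 323 in Col (63.3% and 71.5%). In 46 rises (8.81%) and 118 falls (23.1%) no other genotype passed the threshold. These were mostly small, with 3 and 7 of at least 2-fold, and 45 of the 46 and 114 of the 118 had the same sign in Col. Only 1 of them, the fall of AT5G60760, differed from Col in the test of the difference.

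The difference of responses, iaa5 iaa6 iaa19 minus Col, passed the threshold in 5 of 14192 probe sets (0.0352%), 1 positive (0.00705%) and 4 negative (0.0282%), with 205 at an unadjusted p below 0.05 in limma. The 95% interval of the difference lay within 1 log2 unit of 0 for 12672 probe sets (89.3%), and the median SE was 0.21. Most of these probe sets responded little to IAA, with a median absolute log2 difference of 0.11 in iaa5 iaa6 iaa19. Of those called and changed at least 2-fold in iaa17-6, the interval lay within 1 log2 unit for 167 of 246 risers and 84 of 106 fallers. Several marker genes of auxin response had intervals that held 0: -0.38 to 0.42 for HAT2, -0.47 to 0.03 for IAA29, -0.07 to 0.33 for LBD16, -0.19 to 1.28 for GH3.3 and -1.40 to 1.56 for WES1. Those of LBD29 (0.11 to 1.01) and IAA30 (0.16 to 1.15) lay above 0, toward a larger rise than in Col. These intervals are not adjusted for the number of probe sets, and neither difference was called. Control arrays of both genes were at the floor in both lines. The interval of WES1 is wide and holds differences of more than 2-fold in either direction.

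The 3 largest differences were smaller or undetected rises at probe sets the annotation used here does not name. Whether they measure the mutated genes was not settled here. At 261766_at the IAA arrays of iaa5 iaa6 iaa19 were at the floor, as were its controls, whereas the Col arrays read 9.01, 9.23 and 9.37 after IAA with controls at the floor (difference -3.56, SE 0.17, limma adjusted p = 3.07e-10). At 260152_at iaa5 iaa6 iaa19 read 5.72, 5.64 and 5.64 after IAA, with controls at the floor, and Col read 7.58, 7.34 and 7.71 after IAA, with controls at the floor (difference -1.88, SE 0.15, limma adjusted p = 1.5e-06).

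258399_at still responded in iaa5 iaa6 iaa19, with 6.91, 7.29 and 7.16 on IAA arrays and 6.04, 6.40 and 6.40 on control arrays (log2 0.84, SE 0.15, limma adjusted p = 9.75e-04). In Col it read 10.73, 10.71 and 10.95 on IAA arrays and 7.51, 7.04 and 7.57 on control arrays, so the level was lower in iaa5 iaa6 iaa19 in both treatments and the response differed by -2.58 (SE 0.22, limma adjusted p = 1.61e-06). The same 3 probe sets differed between iaa5 iaa6 iaa19 and iaa17-6, by -3.64, -2.98 and -2.12 for 261766_at, 258399_at and 260152_at. Against axr3-1, 261766_at and 258399_at differed by -1.53 and -1.82, and 260152_at did not pass the test (0.03, SE 0.15).

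The other differences from Col rest on low values. AT5G60760 fell to the floor on all 3 IAA arrays of iaa5 iaa6 iaa19, against 6.50, 6.95 and 6.56 on its control arrays, and in Col to the floor against 5.83, 5.99 and 5.95 (difference -0.75, SE 0.13, limma adjusted p = 0.0323). Since IAA arrays of both lines are at the floor, this difference is that of the control levels. It was not past the threshold without any 1 of the 3 IAA arrays of iaa5 iaa6 iaa19 (adjusted p = 0.056, 0.0959 and 0.115), without any 1 of the 3 Col IAA arrays (adjusted p = 0.0637, 0.0958 and 0.0955), or without Col control array 1 (adjusted p = 0.166) or 3 (adjusted p = 0.091). At AT5G01015 all 6 iaa5 iaa6 iaa19 arrays were at the floor, and Col was at the floor after IAA and read 6.32, 6.14 and 6.45 in controls (difference 0.66, SE 0.07, limma adjusted p = 1.52e-04).

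**Figure D4:**
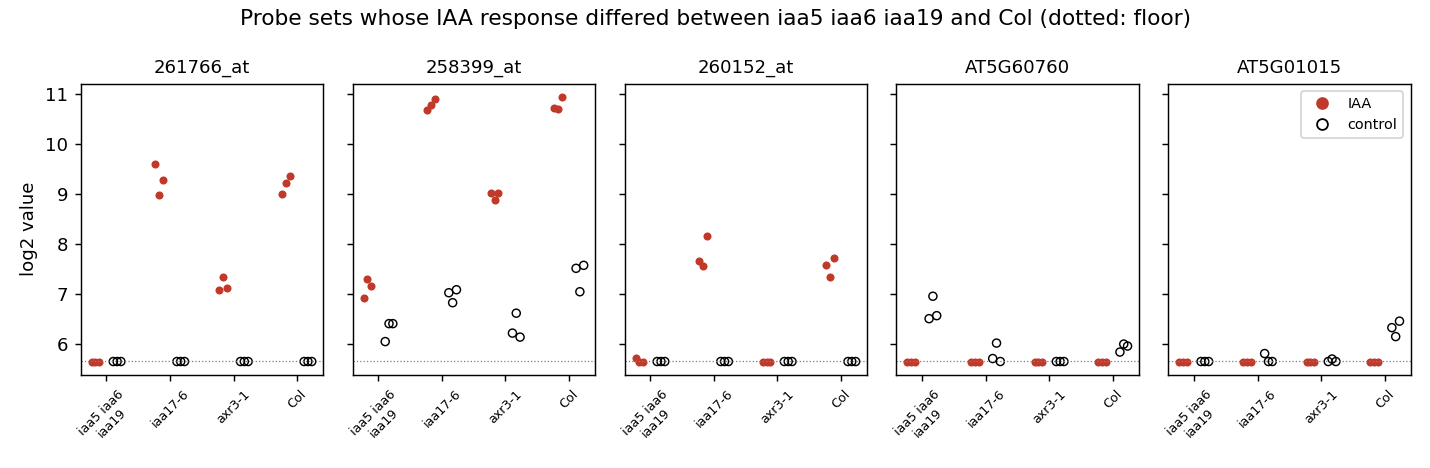
Log2 value on every array for the 5 probe sets whose IAA response differed between iaa5 iaa6 iaa19 and Col; filled red points are IAA arrays, open points control arrays, and the dotted line is the floor. At 261766_at all 6 iaa5 iaa6 iaa19 arrays are at the floor, while Col and iaa17-6 read about 9 after IAA.

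Against iaa17-6, 10 differences passed (0.0705%), 2 positive (0.0141%) and 8 negative (0.0564%), with 303 at an unadjusted p below 0.05 in limma. With the array number as a block, which treats same-numbered arrays of a line as pairs, the count was 5. Besides the 4 probe sets shared with the Col comparison, AT5G60760 included (-0.89), these were 257927_at (-0.70), 247718_at (-0.68), 253734_at (-0.32), AT2G19460 (-0.31), AT3G32030 (1.22) and AT3G14280 (0.33). Of these 6, only AT3G32030 was called with the block, where the adjusted p was 0.0877 for 257927_at, 0.261 for 247718_at, 0.312 for 253734_at, 0.355 for AT2G19460 and 0.372 for AT3G14280 in limma. AT3G32030 lost its call with only the groups compared (limma adjusted p = 0.162). All 6 were near the floor in iaa5 iaa6 iaa19: AT3G32030 read 5.64 on all IAA arrays and 6.00, 5.70 and 5.64 on control arrays, and in iaa17-6 the IAA arrays were at the floor and the control arrays read 6.77, 6.89 and 7.33.

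Sizes of response were compared on probe sets chosen in a genotype other than the pair compared, so that neither response of the pair selected them. On the 246 probe sets that rose at least 2-fold in iaa17-6, the median response was 1.47 in iaa5 iaa6 iaa19 and 1.38 in Col, 227 were called in each, and the difference was called in 3. The rise was larger in iaa5 iaa6 iaa19 for 141 of them (57.3%). On the 230 that rose at least 2-fold in Col, the median was 1.50 in iaa5 iaa6 iaa19 and 1.51 in iaa17-6. There the rise was larger in iaa5 iaa6 iaa19 for 124 (53.9%), with 3 differences called. On the 106 that fell at least 2-fold in iaa17-6, the median was -1.30 in iaa5 iaa6 iaa19 and -1.08 in Col, and the fall was larger in iaa5 iaa6 iaa19 for 82 (77.4%), with 0 differences called. For these fallers the control level was higher in iaa5 iaa6 iaa19 than in Col by a median of 0.25, and the level after IAA differed by a median of 0.00. On the 89 that fell at least 2-fold in Col, the median was -1.30 in iaa5 iaa6 iaa19 and -1.17 in iaa17-6. There the fall was larger in iaa5 iaa6 iaa19 for 60 (67.4%), again with 0 differences called. Such shares were not worked out over all tested probe sets, so those given here have no background. Their probe sets rest on the same arrays and are not independent of each other. Of single fallers, AT4G30450 had a difference from Col of -0.55, with a 95% interval from -0.97 to -0.14 that is not adjusted for the number of probe sets.

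Against axr3-1, 258 differences passed (1.82%), 124 positive (0.874%) and 134 negative (0.944%). Of the 124 positive ones, 111 rose in iaa5 iaa6 iaa19, and in axr3-1 36 rose, 12 fell and 76 were not called. Of the 134 negative ones, 116 fell in iaa5 iaa6 iaa19, and in axr3-1 2 fell, 19 rose and 113 were not called. These probe sets were picked by the difference itself, a choice that favours such unequal calls. On the 186 probe sets that rose at least 2-fold in both iaa17-6 and Col, the median response was 1.60 in iaa5 iaa6 iaa19 and 0.87 in axr3-1, with 177 and 116 called. On the 62 that fell at least 2-fold in both, the median was -1.43 in iaa5 iaa6 iaa19 and -0.11 in axr3-1, with 62 and 2 called, and 45 differences passed. The levels of these 62 lay apart on both sides: iaa5 iaa6 iaa19 was higher than axr3-1 in controls by a median of 0.83 and lower after IAA, by a median log2 difference of -0.58.

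The auxin genes divided by the size of this difference. HAT2 responded by 3.02 in iaa5 iaa6 iaa19 and 2.93 in axr3-1 (difference 0.09, SE 0.19, 95% interval -0.31 to 0.48), whereas GH3.3 responded more in iaa5 iaa6 iaa19 than in axr3-1 (6.41 and 4.47, limma adjusted p = 0.00325 for the difference). For GH3.3 the mean levels were 12.71 in iaa5 iaa6 iaa19 and 12.41 in axr3-1 after IAA, and 6.3 and 7.94 in controls. Its lines thus lay further apart without auxin than after IAA. LBD29 (at least 3.72 in iaa5 iaa6 iaa19 and at least 2.02 in axr3-1) and LBD16 (at least 2.13 and at least 0.84) also differed, with limma adjusted p = 9.1e-05 and 2.41e-07. Their control arrays were at the floor in both lines, but for an axr3-1 LBD29 array at 5.65, so these differences are those of the levels after IAA. PUCHI and IAA30 rose in iaa5 iaa6 iaa19 and were at the floor on all 6 axr3-1 arrays (differences 1.08 and 1.34). The largest positive difference was at 250670_at, with 10.15, 10.03 and 10.14 on IAA arrays and 7.44, 7.14 and 7.32 on control arrays of iaa5 iaa6 iaa19, and 8.30, 8.07 and 8.63 on IAA arrays and 8.18, 8.24 and 8.19 on control arrays of axr3-1. Among annotated genes it was at AT4G17350 (2.30, SE 0.18). The largest negative one was at 254820_s_at (-3.20, SE 0.25), which read 9.99, 10.23 and 10.33 on IAA arrays and 10.28, 10.33 and 9.82 on control arrays of axr3-1. Chosen after its values were seen, XTH19 went the other way among rises, by 1.09 in iaa5 iaa6 iaa19 and 2.86 in axr3-1 (difference -1.77, limma adjusted p = 0.0128).

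**Figure D5:**
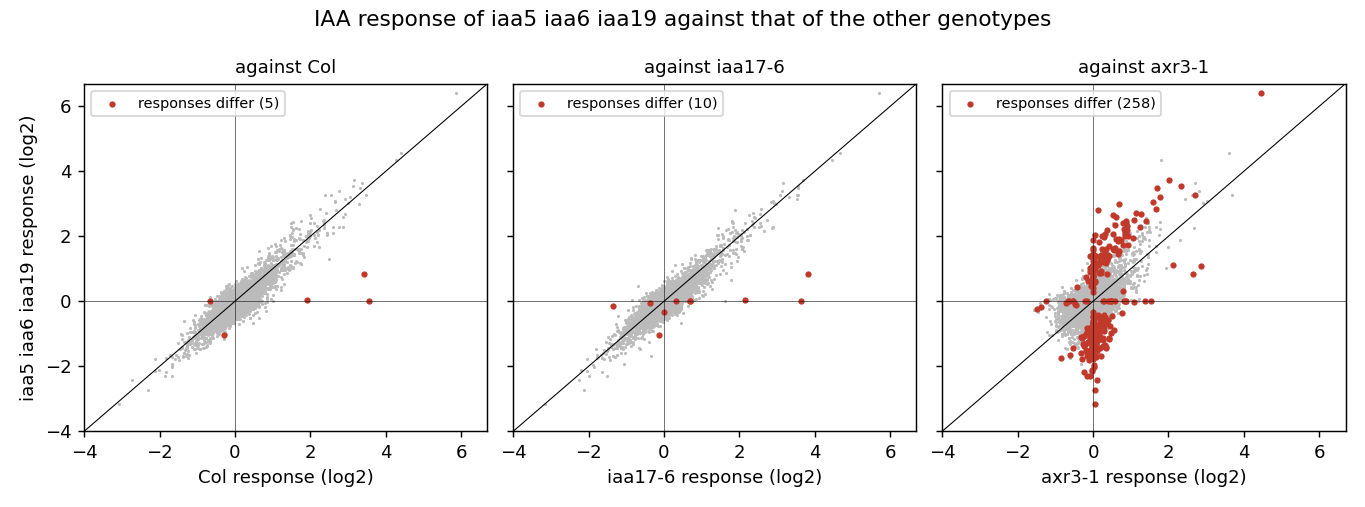
IAA response (log2) of iaa5 iaa6 iaa19 on the vertical axis against that of Col, iaa17-6 and axr3-1 on the horizontal axes, for 14192 tested probe sets, with the line of equal responses. Red points mark probe sets whose responses differed, 5 against Col, 10 against iaa17-6 and 258 against axr3-1; against axr3-1 many red points lie near 0 on the horizontal axis and away from 0 on the vertical axis.

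Called genes lay on all 5 nuclear chromosomes, with 2.87% to 3.8% of tested probe sets higher and 2.31% to 4.1% lower, and of 68 tested plastid probe sets 0 were called. Among 2270 pairs of neighbouring genes with both tested, 4 pairs had both higher (0.176%), 9 both lower (0.396%) and 2 went opposite ways. Of 7539 single genes, 3.24% were higher and 3.1% lower. A pair counts only with both genes called, so its rate cannot be set against these single rates. The rate expected for pairs was not worked out here. Pairs chosen after their values were seen were XTH18 and XTH19, AT4G37290 (log2 1.04) and AT4G37295 (log2 2.50), and, among falls, SFP1 and SFP2, AT4G11190 and AT4G11210, AT4G30450 and AT4G30460 (log2 -0.69), and the methionine sulfoxide reductase genes MSRB5 (log2 -0.79) and MSRB6 (log2 -0.65). Such neighbours can be near-identical copies, and the sharing of signal between their probe sets was not analysed here. Of 66 genes with more than 1 tested probe set, 5 had at least 1 called; in 0 of them were all probe sets called in the same direction, and in 0 were they called in opposite directions.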

How the data were processed

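The authors deposited 1 table of log2 values, 1 per probe set and array, for 24 ATH1 arrays of 8 groups of 3. The log2 scale was read from the values; for the summarization and for the normalization the method is not given in the sources used here. Groups and replicate numbers came from the labels. Separate cultures are not stated, so the p-values measure only the spread between these arrays, and it may be technical. The title of 1 axr3-1 control array spells the allele arx3-1.

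After leaving out 64 control probe sets and 8554 at the floor on all arrays (the lowest 30% by mean, whose limit was the floor itself), 14192 were tested with limma 3.58.1 in R 4.3.3 in 1 fit of 8 group means with a mean trend and 16 residual degrees of freedom, without the replicate number. Tests were two-sided, with Benjamini-Hochberg adjustment within each contrast and a threshold of 0.05. Intervals (95%) were not adjusted. The number of arrays limits the precision (median SE of a response 0.152). Summaries and figures used Python 3.11.15 with pandas 2.3.3 and matplotlib 3.10.9. The fit was also run on simulated data with known changes and independent noise. Those data held no deviations shared between arrays, so they do not test the p-values against such sharing.

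Deviations of same-numbered IAA and control arrays from their group means correlated at 0.836, 0.582 and 0.633 in iaa5 iaa6 iaa19 and at 0.162, 0.56 and 0.698 in iaa17-6, all above 0.1. In Col (-0.075, 0.318 and 0.495) and axr3-1 (-0.052, -0.15 and 0.014) this was not so. Unlike-numbered arrays 2 and 3 of iaa5 iaa6 iaa19 also correlated, at 0.503 and 0.49, so there mainly the arrays numbered 1 stood apart. In iaa17-6, IAA array 1 with control array 2 gave 0.143, and IAA array 2 with control array 1 gave 0.242. A pairing of each number is therefore not shown by these values. The replicate block still treats same-numbered arrays as pairs within every genotype, Col and axr3-1 included. Arrays of iaa5 iaa6 iaa19 correlated at 0.9609 to 0.9957 within the IAA group and at 0.966 to 0.9889 within the controls, and 0 arrays were identical.

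Of 22746 probe sets, 13513 name 1 gene in the platform annotation, 503 name several and 8730 name none here. Symbols were updated through the RefSeq gene table. The named genes are the 15 largest rises and 15 largest falls with 1 annotated gene, past the threshold, of at least 1 on the log2 scale and without overlap, the 10 largest differences in each direction from each other genotype, and per list up to 6 called and 2 of the brightest uncalled members. A gene in a list is represented by its brightest probe set. A member of the root hair list that the rule would name is not reported here. The comparison, lists and rule were chosen with earlier results of these data known. Alternatives were other filters, quantile normalization, median centring, no trend, array weights, only the groups compared, the replicate block, and each array left out.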

Additional observations from a re-analysis of the deposited data

Results flagged for a closer look

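Some IAA responses of iaa5 iaa6 iaa19 differed from those of another genotype in limma's test of the difference itself, given as log2 differences, iaa5 iaa6 iaa19 minus the other. The count was 5 against Col, 10 against iaa17-6 and 258 against axr3-1. Against Col the difference was 0.66 for AT5G01015, -3.56 for 261766_at, -2.58 for 258399_at, -1.88 for 260152_at and -0.75 for AT5G60760. Against iaa17-6 it was 1.22 for AT3G32030, 0.33 for AT3G14280, -3.64 for 261766_at, -2.98 for 258399_at, -2.12 for 260152_at, -0.89 for AT5G60760, -0.70 for 257927_at, -0.68 for 247718_at, -0.32 for 253734_at and -0.31 for AT2G19460.

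Against axr3-1 the 10 largest positive differences were 2.68 for 250670_at, 2.30 for AT4G17350, 2.13 for 262525_at, 1.99 for 263656_at, 1.97 for AT5G40590, 1.93 for GH3.3, 1.89 for scpl28, a serine carboxypeptidase-like gene, 1.81 for 262045_at, 1.79 for 254300_at and 1.77 for 248164_at. The 10 largest negative ones were -3.20 for 254820_s_at, -2.79 for 253957_at, -2.53 for 254606_at, -2.22 for 248252_at, -2.15 for 264470_at, -2.14 for 249205_at, -2.07 for AT3G01190, -2.05 for 247586_at, -1.98 for AT4G11210 and -1.93 for AT4G25250. The call of 262525_at was lost with only the groups compared (limma adjusted p = 0.102) and without any 1 of 5 arrays (adjusted p = 0.0516 to 0.0612). That of 262045_at was lost with only the groups compared (limma adjusted p = 0.134), without a filter (adjusted p = 0.0539) and without any 1 of 6 arrays (adjusted p = 0.0544 to 0.0827). At AT5G40590 the control arrays of iaa5 iaa6 iaa19 read 5.64, 5.82 and 5.64, against 8.07, 8.11 and 7.58 on the control arrays of axr3-1, which were high without auxin.

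Other named risers whose response was larger in iaa5 iaa6 iaa19 than in axr3-1, in part with controls of both lines at the floor, were LBD29 (1.70), IAA29 (0.56), AT1G62770 (1.43), AT3G26760 (1.41), AT4G37295 (1.42), AT1G59740 (1.07), AT1G64405 (1.60), AT3G51410 (1.75), IAA30 (1.34), LBD16 (1.29) and PUCHI (1.08). Other named fallers that fell more were AT3G01260 (-1.79), AT1G72200 (-1.69), GSTU26 (-1.77), tny (-1.59), AT4G30450 (-1.25), AT5G60520 (-1.64), AT3G20015 (-1.31), AT4G11190 (-1.76), AT2G16980 (-1.43), EXPB1 (-0.87) and GSTU28 (-1.04). AT3G01260 and EXPB1 were at the floor on all 6 axr3-1 arrays, where no fall could be measured. In axr3-1 the responses of these 11 genes lay between -0.32 and 0.34.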

How the results depend on the processing

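The count of 1032 probe sets called in the IAA response of iaa5 iaa6 iaa19 was 614 with the lowest 60% left out and 680 with only those above the floor on every array compared, where fewer were tested. Array weights gave 2348, with weights from 0.116 to 8.057 whose estimation stopped before it converged. The other settings gave 706 (only the groups compared) to 1305 (replicate block), and 759 to 945 without 1 array at a time, the lowest without IAA array 2. Chosen after seeing the data, leaving out both arrays numbered 1 gave 753, and the replicate block with only the iaa5 iaa6 iaa19 arrays gave 846. In that last fit tny (adjusted p = 0.0566), GH3.1 (adjusted p = 0.12), EXPB1 (adjusted p = 0.0513), AT3G45700 (adjusted p = 0.0691), AT1G72200 (adjusted p = 0.0638), AT4G39675 (adjusted p = 0.0606) and WAG2 (adjusted p = 0.18) were no longer called in limma. With only the groups compared, AT4G39675 (adjusted p = 0.0987), AT3G20015 (adjusted p = 0.0555), WAG2 (adjusted p = 0.217), GSTU27 (adjusted p = 0.166), GSTU16 (adjusted p = 0.144) and SWEET17 (adjusted p = 0.0865) were lost too, and without a filter WAG2 (adjusted p = 0.052) and GSTU16 (adjusted p = 0.0711). The 5 differences from Col became 2 with the lowest 60% left out, 1 with probe sets above the floor, 20 with array weights and 10 with only the groups compared, and 4 to 8 without 1 array, 8 without iaa5 iaa6 iaa19 IAA array 1. The 10 differences from iaa17-6 became 2, 1, 6 with median centring, 5 with only the groups compared and 5 with the replicate block, and 7 to 14 without 1 array. The 258 differences from axr3-1 became 114 with the lowest 60% left out and 85 with probe sets above the floor, and 202 to 281 without 1 array. The cause was not tested where fewer probe sets or arrays do not show it. Of the results and settings run, 0 reversed in sign. The replicate block also gave 4 differences from Col and 333 from axr3-1, and among the differences named it ended the calls of AT5G60760 against Col (adjusted p = 0.188) and, against iaa17-6, of AT3G14280, AT2G19460, 257927_at, 247718_at and 253734_at, and it added EXPA15 to the named rises. It changed no other named call. Values at the floor limit what can be measured of low genes.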
